A study of Homo sapiens with 5 samples.

Results

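Interferon-stimulated genes are the genes that cells switch on when interferon binds its receptor, and 45 of them were followed here through 5 libraries of total RNA from WI-38 cells, an established line of human diploid lung fibroblasts. The members were a named list of genes grouped by function, and they were matched by gene symbol among 44258 genes with annotated transcripts. Of the 45 members, 27 had a mean FPKM (sequenced fragments per kilobase of a transcript, corrected for library size) of at least 1 and are called measured, and 18 lay below. Untransfected cells were taken at population doubling level (PDL) 15, an early passage, and at PDL 55, a late one. The other 3 groups, also at PDL 15, received a control siRNA, an siRNA against AUF1 or an siRNA against HuR, which are RNA-binding proteins. All 5 groups share the cell line and the culture medium, and each had 1 library. Every comparison below is therefore between 2 libraries, with no replicate check and no p-value. The labels do not give the time after transfection, the siRNA dose or a mock transfection. The question put to these genes was whether late passage or siRNA transfection raises them.

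Interferons alpha and beta bind a shared receptor whose kinases JAK1 and TYK2 phosphorylate transcription factors such as STAT2. STAT2 acts with IRF9 in a complex that binds the interferon-stimulated response element in the promoters of the induced genes. The products sense viral RNA or DNA, block translation, trap virus at membranes or display peptides to T cells. Double-stranded RNA, siRNA included, can start such a response in fibroblasts through sensors such as RIG-I, and senescent fibroblasts are known to be able to show one.

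The core of that element can be written as GAAA, any 2 bases and GAAA again, here called the GAAA repeat, or TTTC, any 2 bases and TTTC on the other strand. In RefSeq promoters of the build GRCh38.p14, taken as 250 bases before to 50 bases after the start of a gene, 37 of the 45 members were matched. On either strand, 23 of the 37 (62.2%) held the GAAA repeat, against 996 of 27305 promoters of all genes (3.65%). The stretches around the repeat are shown for 6 members whose levels are described below, because it is the sequence through which interferon is known to act on them, 5′ to 3′ on the strand of the gene, with the matching letters in capitals. ISG15 lies at chr1:1013370-1013419 on the plus strand, IFI6 at chr1:27672256-27672307 on the minus strand, IFIT1 at chr10:89392500-89392549 on the plus strand, IFITM3 at chr11:320866-320915 on the minus strand, TAP1 at chr6:32853803-32853852 on the minus strand, and B2M at chr15:44711359-44711408 on the plus strand.
ISG15: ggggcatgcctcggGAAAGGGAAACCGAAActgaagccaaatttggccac
IFI6: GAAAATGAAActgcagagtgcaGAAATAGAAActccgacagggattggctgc
IFIT1: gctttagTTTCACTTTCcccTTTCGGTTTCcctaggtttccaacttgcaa
IFITM3: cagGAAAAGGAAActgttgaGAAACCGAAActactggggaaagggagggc
TAP1: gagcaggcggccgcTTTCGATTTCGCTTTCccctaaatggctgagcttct
B2M: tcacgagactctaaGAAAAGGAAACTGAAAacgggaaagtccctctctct
In each of the 6, the capitals hold 2 matches. Those of ISG15, TAP1 and B2M overlap, and those of IFI6, IFIT1 and IFITM3 stand apart. A match is a string of letters and was not tested as a binding site in these cells. The repeat was found in 13 of 25 measured members with a promoter and in 10 of 12 members below the minimum.

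The 5 libraries were checked before the members were read. The tables hold no read numbers, but the deposited coverage divided by FPKM, a relative measure of depth, was 0.300 with control siRNA and 1.14 to 1.29 in the other 4 libraries. The control siRNA library also stood apart in its makeup, with 19.6% of its aligned signal (coverage times length) in annotated transcripts against 71.0% to 74.9% elsewhere. HNRNPD, the gene of AUF1, had an FPKM of 20.3 with AUF1 siRNA, 61.2 with control siRNA and 119.1 at PDL 15. ELAVL1, the gene of HuR, had 9.72 with HuR siRNA, 11.8 with control siRNA and 16.7 at PDL 15, and the deposited 95% bounds of the first 2 overlap. With assembled transcripts included, ELAVL1 was at 14.8 with HuR siRNA against 11.8 with control siRNA and 17.6 at PDL 15, so on that count the library labelled HuR siRNA was not below the control library. Of 10 fibroblast markers, 8 to 10 reached an FPKM of 1 in each library, with THY1 listed at 0 at PDL 15 and at PDL 55, PDGFRB at 0 with control siRNA and COL1A1 at 0 with HuR siRNA. Their summed FPKM was 5253 at PDL 15, 2238 at PDL 55, 1862 with control siRNA, 9880 with AUF1 siRNA and 4363 with HuR siRNA. VIM had no estimate with control siRNA and adds nothing to that sum, whereas it had 1090 to 2827 in the other libraries. The control siRNA sum is therefore not comparable with the others. Of 11 blood and immune markers, 2 or 3 reached an FPKM of 1, with a summed FPKM of 13.4 to 40.2. Of 4 markers of plasmacytoid dendritic cells, 2 reached an FPKM of 1 in each library, TCF4 at 8.96 to 46.7 and IL3RA at 1.32 to 2.39. CLEC4C did not exceed 0.586, and LILRA4, a defining marker, was at 0 in all 5. CD68, a macrophage marker, was at 2.80 at PDL 15 and at 15.5 to 18.5 in the 3 transfected libraries, with no estimate at PDL 55. Other markers of that list did not follow it. CD163 was at 16.8 at PDL 15 and at 16.3 to 19.4 in the 3 transfected libraries, and CD14 did not exceed 0.0482. Markers of epithelium summed to 4.38 to 16.7 and those of endothelium to 4.72 to 14.6. In bulk RNA, fewer expressing cells and less RNA per cell cannot be told apart.

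Most members were at low levels in all 5 libraries. The median measured member had a mean FPKM of 4.80, against 6.43 over all 13810 genes kept, and 7 members, 25.9% of those measured beside 37.5% of all genes kept, exceeded 10: IFITM3, IFITM2, B2M, IFI16, TRIM22, STAT2 and SAMD9L. The members reached the minimum more often than genes at large, 27 of 45 against 13810 of 44258. Several genes that a strong interferon response is known to raise were among the 18 below the minimum. The OAS family, which makes the second messenger of RNase L, reached at most 1.07 FPKM for OAS3, 1.05 for OAS1, 0.718 for OASL and 0.528 for OAS2. RSAD2, the antiviral enzyme viperin, did not exceed 0.157, and HERC5, the main ligase of ISG15, did not exceed 0.256. Other members below the minimum were IFI44L (highest FPKM 0.953), IFI27 (0.937), MX2 (1.15), IFIT2 (1.02), BST2 (1.36), IRF7 (1.33), USP18 (1.70), IFIH1 (1.68), SAMD9 (1.81), DDX60 (0.710) and TRIM21 (1.95). IFITM1 was listed at 0 in 4 libraries and had no estimate at PDL 55. The minimum fell between IFIH1 at a mean of 0.994 and IFIT3 at 1.002, with SAMD9 at 0.827 and IRF7 at 0.809 outside and ISG20 at 1.09 and XAF1 at 1.27 inside.

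No interferon gene was measured either. None of 21 ligand genes had a mean FPKM of 1, and IFNB1, the interferon that fibroblasts make, did not exceed 0.0421. IFNA5 had no value. IFNE, an epithelial interferon, was the highest, with an FPKM of 1.24 at PDL 15, 1.12 at PDL 55, 0.249 with control siRNA, 0.877 with AUF1 siRNA and 1.25 with the siRNA against HuR.

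**Figure D1:**
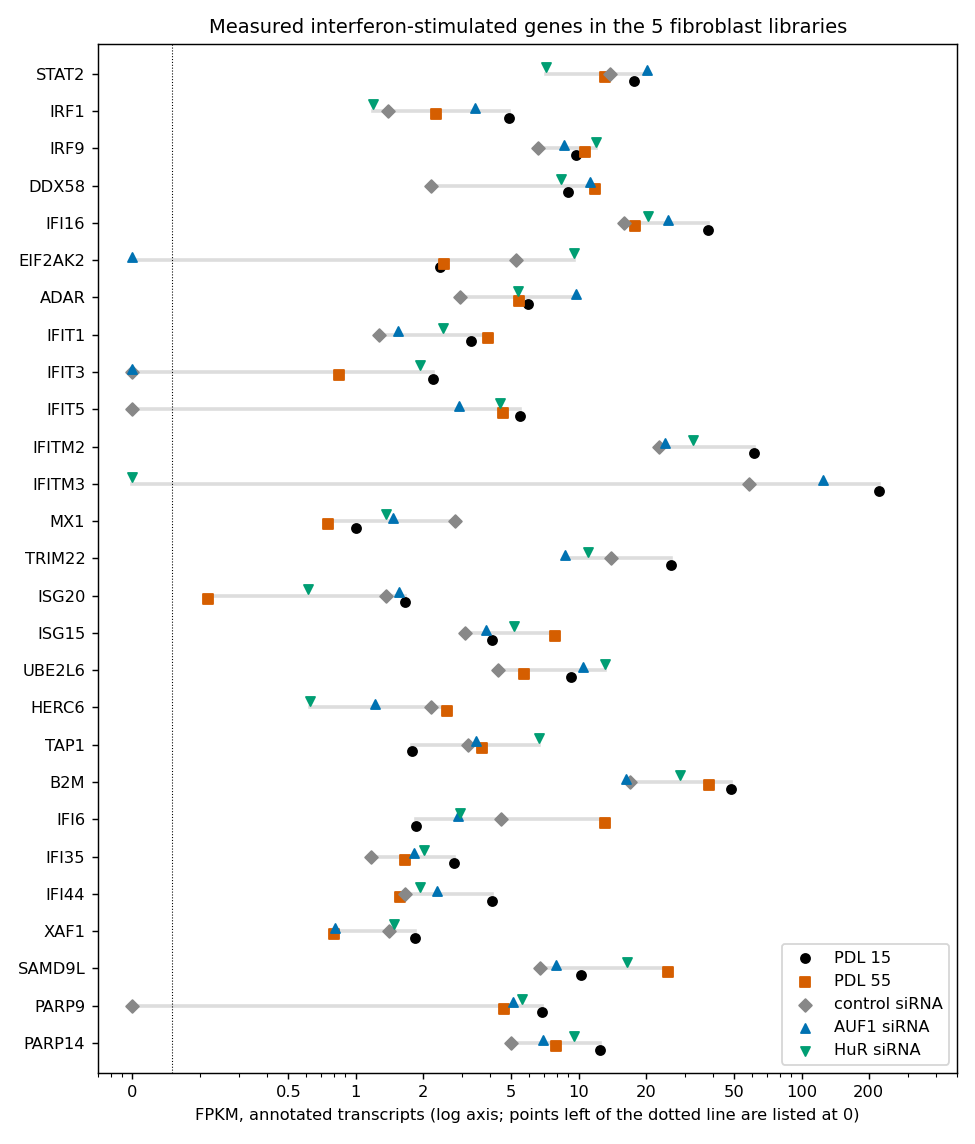
FPKM (log axis) of the 27 measured interferon-stimulated genes, 1 row a gene and 1 point a library. Black circles are PDL 15, orange squares PDL 55, grey diamonds control siRNA, blue triangles AUF1 siRNA and green triangles HuR siRNA; points left of the dotted line are listed at 0, and libraries without an estimate have no point. Among the 23 members with an estimate in every library, PDL 15 is the highest in 11 and control siRNA the lowest in 13.

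The libraries in which single members peaked were spread over all 5 groups. Of the 23 measured members with an estimate in all 5 libraries, 11 were highest in untreated PDL 15 cells, 5 at PDL 55, 4 with HuR siRNA, 2 with AUF1 siRNA and 1 with control siRNA. The lowest value fell in the control siRNA library for 13 of the 23. Over all 13056 genes with such estimates, 34.0% were highest at PDL 15 and 33.7% lowest with control siRNA, beside 47.8% and 56.5% of the members. The members' median FPKM was 4.90 at PDL 15, 4.65 at PDL 55, 2.93 with control siRNA, 3.46 with AUF1 siRNA and 5.33 with HuR siRNA, on the deposited scale.

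Comparisons use log2((FPKM + 1)/(FPKM + 1)), which understates differences of genes at low levels, and are given relative to the median ratio of all genes kept. That median was -0.32 for PDL 55 against PDL 15 and, against the same PDL 15 library, -0.41 in the control siRNA, -0.20 in the AUF1 siRNA and -0.079 in the HuR siRNA library. "Higher" and "lower" mean at least 2-fold apart on this scale. The 4 comparisons with PDL 15 share that 1 library, so a value high or low at PDL 15 enters all 4. A gene is left out of a comparison in which either library has no estimate.

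Late passage left most members near their early-passage level, and 4 were higher: IFI6, SAMD9L, ISG15 and TAP1. The 4 were among 23 members compared, 17.4%, and 9.40% of all genes were higher. None was lower, where 10.2% of all genes were, but 1 to 3 members were lower under 8 other settings, among them 3 with 1 transcript counted for each gene and 3 at 1.5-fold. Of 10 fibroblast markers 5 were lower at PDL 55, with a median of -1.07, and their part in the result was not tested. The median member differed from the median gene by 0.00020, with a 95% interval of -0.29 to 0.45 over members, which are not replicates. IFITM2, IFITM3 and TRIM22, among the most abundant members, had no estimate at PDL 55 and could not be compared. Neither could HERC6, which had none at PDL 15.

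IFI6 (ENSG00000126709; hg19 chromosome 1, 27992572 to 27998729), a mitochondrial and endoplasmic reticulum protein that delays apoptosis, differed most. Its FPKM was 1.87 at PDL 15, 13.2 at PDL 55, 4.48 with control siRNA, 2.89 with AUF1 siRNA and 2.94 with HuR siRNA. PDL 55 stood above all 4 younger libraries, at a ratio of 2.62 to PDL 15. Both values come from the same transcript of 841 nt, with a coverage of 2.35 and 17.0. The bounds of the sums, 1.38 to 2.36 and 11.8 to 14.5, do not meet.

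SAMD9L (ENSG00000177409; hg19 chromosome 7, 92759368 to 92777682), a growth-restraining antiviral factor, had an FPKM of 10.3 at PDL 15, 25.3 at PDL 55, 6.72 with control siRNA, 7.92 with AUF1 siRNA and 16.5 with HuR siRNA. Its ratio at PDL 55 was 1.54. A short transcript of 381 nt held 6.47 of the FPKM at PDL 15 and 15.8 at PDL 55. Its neighbour and paralog SAMD9 was at 1.45 and 0.510 in the same 2 libraries, and at 1.45 and 1.41 with assembled transcripts, so the difference of SAMD9L was not seen in it.

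ISG15 (ENSG00000187608; hg19 chromosome 1, 948803 to 949920), a ubiquitin-like protein that is coupled to other proteins, was read from 1 transcript in every library. Its FPKM was 4.08 at PDL 15, 7.84 at PDL 55, 3.10 with control siRNA, 3.83 with AUF1 siRNA and 5.13 with HuR siRNA. PDL 55 was again the highest, at a ratio of 1.11. The enzyme that hands ISG15 on, UBE2L6, had an FPKM of 9.21 at PDL 15 and 5.72 at PDL 55, a ratio of -0.29.

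TAP1 (ENSG00000168394; hg19 chromosome 6, 32812986 to 32821755), a subunit of the transporter that loads peptides onto class I molecules, had an FPKM of 1.79 at PDL 15, 3.68 at PDL 55, 3.20 with control siRNA, 3.46 with AUF1 siRNA and 6.64 with HuR siRNA. PDL 15 was the lowest and HuR siRNA the highest. Its ratio was 1.06 at PDL 55 and 1.53 with HuR siRNA. TAP1 overlaps PSMB9 and PSMB8-AS1, and the strand of the reads is not stated, so reads of the 3 cannot be told apart. Assembled signal over TAP1 that was assigned to no gene was 3.14 at PDL 15 and 0 in every other library. It is in no count here, and its part in the TAP1 ratios was not tested. PSMB9, an immunoproteasome subunit, had an FPKM of 9.69, 15.2, 11.1, 16.5 and 27.4 in the same order of libraries.

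ISG15 and TAP1 passed 2-fold only relative to the median gene: as deposited, their ratios were 0.80 and 0.74, and 2 members were then higher and 2 lower, beside 6.11% and 16.9% of all genes. With genes at 0 in either library left out, the 4 were still higher and none lower, beside 8.17% and 8.03%. Of the 4, IFI6, ISG15 and TAP1 hold the GAAA repeat in the promoter, as shown above, and SAMD9L does not. IFIT1, which also holds the letters and encodes a protein that binds viral RNA caps, had an FPKM of 3.31 at PDL 15 and 3.93 at PDL 55, a ratio of 0.51. MX1, a GTPase against influenza viruses, was at 1.01 and 0.751, and its bounds overlap.

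**Figure D2:**
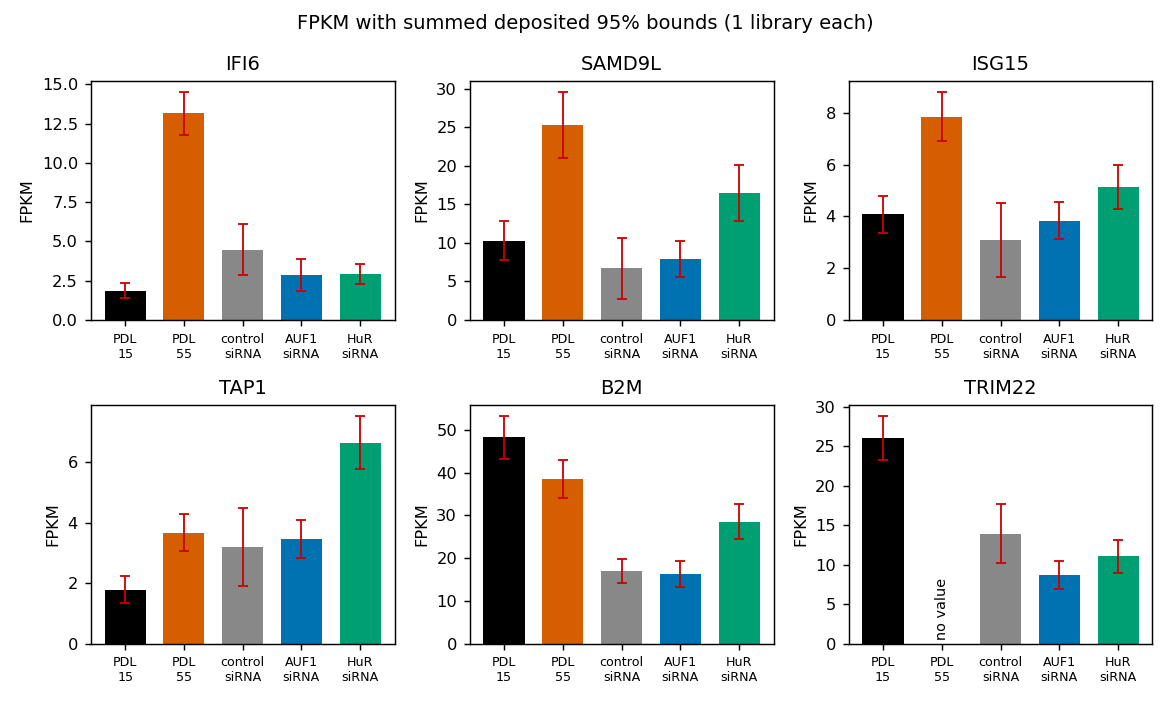
FPKM of IFI6, SAMD9L, ISG15, TAP1, B2M and TRIM22 in each library. Bars are the FPKM summed over annotated transcripts, and red lines the summed deposited 95% bounds within 1 library. IFI6, SAMD9L and ISG15 are highest at PDL 55, TAP1 with HuR siRNA, and B2M and TRIM22 at PDL 15.

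The control siRNA library gave no general rise of the members. Against PDL 15, 3 of 26 members were higher, 11.5% beside 14.0% of all genes, and 6 were lower, 23.1% beside 11.7%. The median member was at -0.48, with an interval of -0.88 to 0.071 over members, and 18 of 26 members lay below the median gene. This is the library with low coverage per FPKM described above, and the part that depth plays in these values was not tested. Of 9 fibroblast markers compared 6 were lower in it, with a median of -1.63. Of 3 blood and immune markers compared, CD68 was higher in all 3 transfected libraries, PTPRC with control siRNA alone and CD163 in none. The part of these cell type markers in the members' values was not tested.

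The 3 higher members were IFI6 at 1.35, MX1 at 1.33 and EIF2AK2 at 1.29. The IFI6 value with control siRNA rests on another transcript, of 828 nt and coverage 1.34, than in the other libraries. MX1 (ENSG00000157601) had an FPKM of 1.01 at PDL 15, 0.751 at PDL 55, 2.78 with control siRNA, 1.47 with AUF1 siRNA and 1.37 with HuR siRNA. The bounds of the MX1 value with control siRNA run from 0 to 6.26, so at this depth it cannot be told from the others. EIF2AK2, the kinase PKR that halts translation on double-stranded RNA, had an annotated FPKM of 2.40 at PDL 15, 2.50 at PDL 55, 5.26 with control siRNA, 0 with AUF1 siRNA and 9.58 with HuR siRNA.

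The 6 lower members were PARP9, IFIT5, IFITM3, IFIT3, DDX58 and B2M. PARP9, IFIT5 and IFIT3 were listed at 0 with control siRNA, where an exact 0 can be a failed estimate, so no fold is given for them. With genes at 0 in either library left out, 3 members were higher, beside 12.2% of all genes, and 3 lower, beside 9.03%. As deposited, 0 members were higher and 10 lower, beside 8.68% and 22.2%.

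B2M (ENSG00000166710; hg19 chromosome 15, 45003675 to 45010359), the light chain of class I molecules, had an FPKM of 48.3 at PDL 15, 38.6 at PDL 55, 17.0 with control siRNA, 16.3 with AUF1 siRNA and 28.6 with HuR siRNA. All 3 transfected libraries lay below both untreated ones. The ratio to PDL 15 was -1.04 with control siRNA, -1.31 with AUF1 siRNA and -0.66 with HuR siRNA, and 0.00020 at PDL 55.

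IFITM3 (ENSG00000142089; hg19 chromosome 11, 319669 to 321340), which blocks virus entry at endosomes, was the most abundant member. Its annotated FPKM was 221.7 at PDL 15, 57.9 with control siRNA, 124.3 with AUF1 siRNA and 0 with HuR siRNA, with no estimate at PDL 55. An assembled transcript over the gene held 209.1 with HuR siRNA. IFITM2, its near-identical neighbour, had an annotated FPKM of 61.0 at PDL 15, 23.0 with control siRNA, 24.3 with AUF1 siRNA and 32.5 with HuR siRNA, all below PDL 15. Assembled transcripts over IFITM2 that were assigned to no gene are in no count. They held 12.36 at PDL 15, 4.94 with control siRNA, 53.35 with AUF1 siRNA and 40.2 with HuR siRNA. Reads shared among IFITM1, IFITM2 and IFITM3 make the split between them uncertain.

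DDX58, the RNA sensor RIG-I (ENSG00000107201; hg19 chromosome 9, 32455703 to 32526322), had an FPKM of 8.95 at PDL 15, 11.9 at PDL 55, 2.18 with control siRNA, 11.3 with AUF1 siRNA and 8.33 with HuR siRNA. The control siRNA library was the lowest, at a ratio of -1.24 to PDL 15, and AUF1 siRNA stood at 1.76 against it. Neither call held with assembled transcripts, at -0.93 and 0.86, and with 1 transcript a gene both turned, to 0.19 and -0.076.

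With AUF1 siRNA, 0 of 26 members were higher than at PDL 15, where 9.90% of all genes were, and 5 were lower (19.2% of the members, beside 9.19% of all genes). The 5 were EIF2AK2, IFIT3, B2M, TRIM22 and IFITM2, and the median member was at -0.20. EIF2AK2 and IFIT3 were listed at 0 there. Without genes at 0, none was higher and the 3 others were lower, beside 8.39% and 7.16% of all genes.

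TRIM22 (ENSG00000132274; hg19 chromosome 11, 5710919 to 5758319), an antiviral ubiquitin ligase, had an FPKM of 26.0 at PDL 15, 13.9 with control siRNA, 8.66 with AUF1 siRNA and 11.0 with HuR siRNA, with no estimate at PDL 55. PDL 15 was the highest, and its bounds meet none of the others. The ratio was -1.28 with AUF1 siRNA and -1.09 with HuR siRNA. In these 4 libraries the FPKM came from 1 transcript of 508 nt, in a span that overlaps TRIM5, so the values describe that transcript. Assembled signal over TRIM22 that was assigned to no gene was 2.62 with AUF1 siRNA and 8.475 with HuR siRNA. It was 0 at PDL 15 and with control siRNA. This signal is in no count here, and its part in the TRIM22 ratios was not tested.

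Against control siRNA, 4 of 27 members were higher with AUF1 siRNA (PARP9, IFIT5, DDX58 and ADAR; 10.3% of all genes were), and 1 was lower (EIF2AK2; 11.5% of all genes). The median member was at 0.053. ADAR, which edits double-stranded RNA, had an annotated FPKM of 5.93 at PDL 15, 5.43 at PDL 55, 2.93 with control siRNA, 9.76 with AUF1 siRNA and 5.33 with HuR siRNA. PARP9 had an FPKM of 6.84 at PDL 15, 4.65 at PDL 55, 0 with control siRNA, 5.10 with AUF1 siRNA and 5.60 with HuR siRNA. IFIT5 had 5.44, 4.57, 0, 2.92 and 4.45 in that order. For PARP9 and IFIT5 the difference is thus the 0 listed in the control library. Without genes at 0, DDX58 and ADAR remained higher, beside 7.56% of all genes, and none was lower, beside 9.47%. With assembled transcripts included, 1 of 31 was higher (IFITM3; 9.08% of all genes) and 0 lower (11.1%).

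With HuR siRNA, 2 of 26 members were higher than at PDL 15, EIF2AK2 and TAP1, where 8.96% of all genes were, and 4 were lower (IFITM3, IRF1, STAT2 and TRIM22; 8.50% of all genes). The median member was at -0.17. STAT2 and IRF1 are transcription factors of the response itself. STAT2 (ENSG00000170581) had an annotated FPKM of 17.7 at PDL 15, 13.1 at PDL 55, 13.8 with control siRNA, 20.4 with AUF1 siRNA and 7.16 with HuR siRNA. IRF1 had 4.90, 2.29, 1.40, 3.44 and 1.20 in that order. With assembled transcripts neither was lower with HuR siRNA, at 0.38 for STAT2 and -0.67 for IRF1. Without genes at 0, EIF2AK2 and TAP1 were higher, beside 7.43% of all genes, and 3 members lower, beside 6.39%. The third factor, IRF9, was steadier, between 6.61 with control siRNA and 11.9 with HuR siRNA.

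Against control siRNA, 5 of 27 members were higher with HuR siRNA (PARP9, IFIT5, IFIT3, DDX58 and UBE2L6; 11.0% of all genes were) and 3 were lower (IFITM3, HERC6 and STAT2; 12.1% of all genes). The median member was at 0.28. UBE2L6 had an FPKM of 9.21 at PDL 15, 5.72 at PDL 55, 4.38 with control siRNA, 10.5 with AUF1 siRNA and 13.1 with HuR siRNA. HERC6 had no estimate at PDL 15, 2.56 at PDL 55, 2.19 with control siRNA, 1.23 with AUF1 siRNA and 0.623 with HuR siRNA. Its bounds with control siRNA, 0.114 to 4.52, cover the HuR siRNA value. Without genes at 0, DDX58 and UBE2L6 were higher, beside 8.17% of all genes, and STAT2 and HERC6 lower, beside 10.1%. With assembled transcripts, 2 of 31 were higher (IFITM3 and UBE2L6; 9.58%) and 2 lower (HERC6 and MX1; 11.6%). Both knockdown comparisons share the control library. It and the AUF1 siRNA library each listed 7 of the 45 members at 0, against 2 or 3 in the others.

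**Figure D3:**
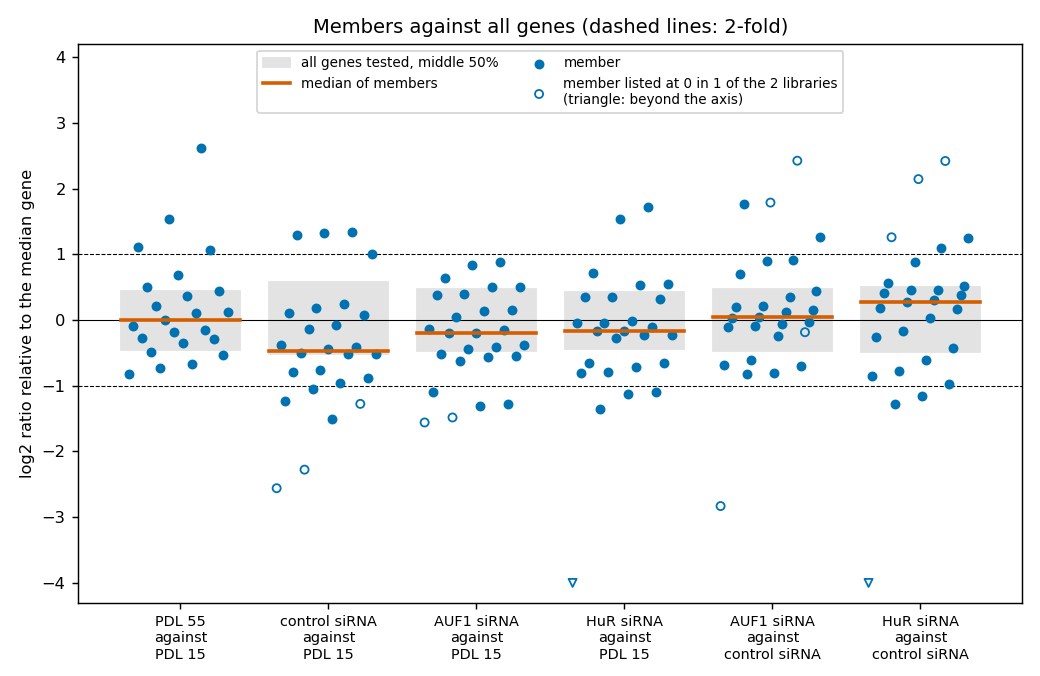
log2 ratio relative to the median gene for each measured member in 6 comparisons. Points are members (open where 1 of the 2 libraries lists the gene at 0, a triangle where the value is beyond the axis), orange lines their medians, grey boxes the middle 50% of all genes tested and dashed lines 2-fold. The members' medians run from -0.48 for control siRNA against PDL 15 to 0.28 for HuR siRNA against control siRNA.

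Among the remaining measured members, IFI16, a nuclear DNA sensor with a mean FPKM of 23.5, had 38.0 at PDL 15, 17.9 at PDL 55, 15.9 with control siRNA, 25.1 with AUF1 siRNA and 20.4 with HuR siRNA. PDL 15 was the highest, but no ratio to it reached 2-fold. IFIT3, a partner of IFIT1, had an FPKM of 2.22 at PDL 15, 0.839 at PDL 55, 0 with control siRNA, 0 with AUF1 siRNA and 1.95 with HuR siRNA. The 7 members PARP14, IFIT1, IFI44, IFI35, XAF1, ISG20 and IRF9 stayed within 2-fold of the median gene in all 6 comparisons, with FPKM from 0.217 (ISG20 at PDL 55) to 12.5 (PARP14 at PDL 15).

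Several of these differences depend on which transcripts are counted as the gene. The deposited tables list annotated transcripts and transcripts assembled from the reads, and in some libraries a member's FPKM had passed to an assembled one. With both summed, EIF2AK2 had an FPKM of 14.6 at PDL 15, 10.4 at PDL 55, 7.92 with control siRNA, 7.21 with AUF1 siRNA and 16.5 with HuR siRNA. In those totals the control siRNA value lies below PDL 15, with a ratio of -0.37. The STAT2 total was 22.1 with HuR siRNA, a ratio of 0.38 to PDL 15, against -1.12 from annotated transcripts. ADAR totals were 25.1 to 36.9, so the 2-fold difference between AUF1 and control siRNA is that of a minor annotated part. IFITM3 with HuR siRNA stood at -0.012 to PDL 15 and at 1.48 to control siRNA. PARP9 with control siRNA stood at -0.19 to PDL 15. TRIM21, an antibody receptor in the cytosol, was below the minimum in annotated transcripts but had totals of 2.72 to 6.93.

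With assembled transcripts included, late passage gave the same 4 higher members among 27 compared, beside 8.90% of all genes, and 1 lower, ISG20, beside 10.0%. Control siRNA gave 3 higher (IFI6, MX1 and TAP1; 13.2% of all genes) and 2 lower (IFITM3 and B2M; 10.4%) of 30. AUF1 siRNA gave 0 higher (8.88%) and 3 lower (B2M, TRIM22 and IFITM2; 8.56%), and HuR siRNA 1 higher (TAP1; 8.32%) and 2 lower (ISG20 and TRIM22; 7.63%), all against PDL 15. B2M was thus lower with control and AUF1 siRNA on both counts, and TRIM22 with AUF1 and HuR siRNA. For TRIM22 neither count includes the unassigned signal of 2.62 with AUF1 siRNA and 8.475 with HuR siRNA, against 0 at PDL 15.

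**Figure D4:**
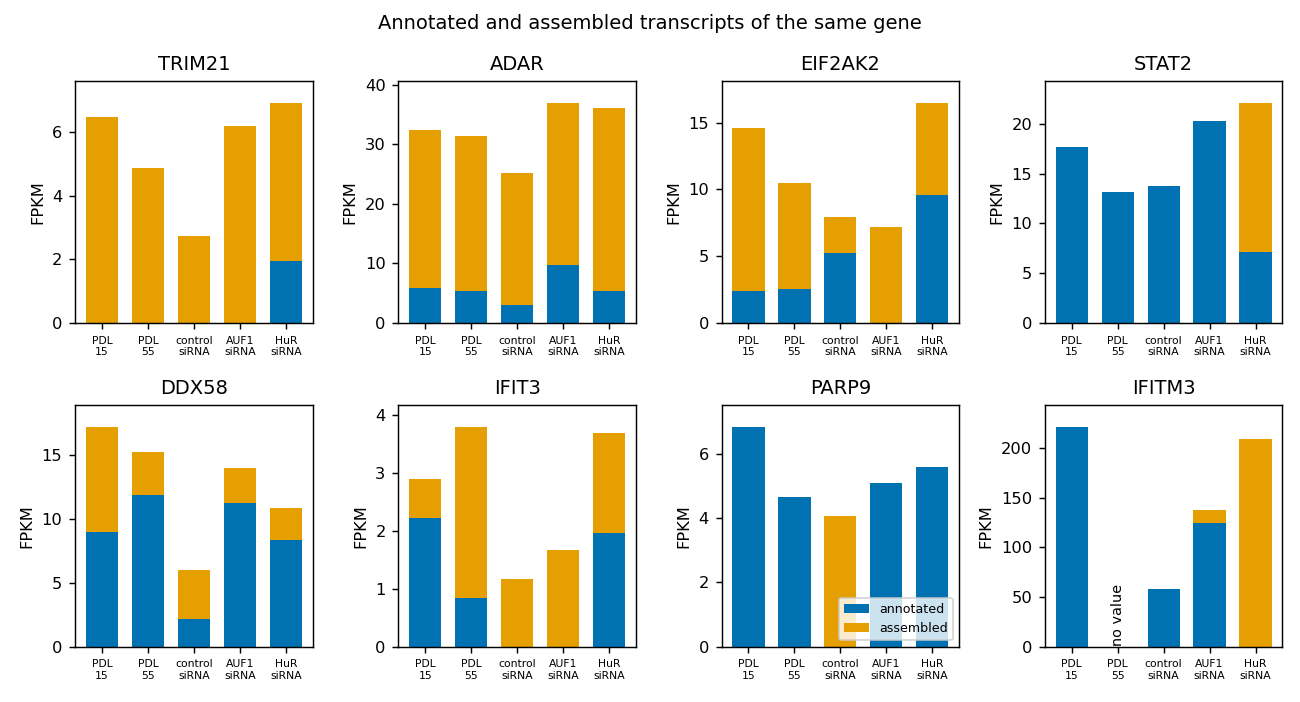
FPKM of 8 members in each library, with annotated transcripts in blue and assembled transcripts of the same gene stacked in orange. Most of the ADAR and TRIM21 signal is in assembled transcripts in every library, and IFITM3 with HuR siRNA, EIF2AK2 with AUF1 siRNA and PARP9 with control siRNA are held by assembled transcripts alone.

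Most signalling genes upstream were measured. Of 10 receptor and signalling genes 9 were measured, and none was higher or lower at PDL 55. Against PDL 15, control siRNA gave 1 higher (14.0% of all genes) and 2 lower (11.7%) of 9. AUF1 siRNA gave 0 higher (9.90%) and 1 lower (9.19%), and HuR siRNA 0 higher (8.96%) and 2 lower (8.50%). JAK1 had an FPKM of 27.4, 19.3, 6.97, 19.2 and 22.2, and IFNAR1, a receptor chain, 17.3, 20.3, 19.5, 9.82 and 7.60, in the order PDL 15, PDL 55, control, AUF1 and HuR siRNA. The JAK1 value with control siRNA had a ratio of -1.42 from annotated and 0.45 from all transcripts.

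Negative regulators were measured for 11 of 12 genes, and 2 were lower at PDL 55, beside 10.2% of all genes. Against PDL 15, control siRNA gave 1 higher (14.0% of all genes) and 2 lower (11.7%) of 11. HuR siRNA gave 2 higher (8.96%) and 0 lower (8.50%) of 11. With AUF1 siRNA none passed 2-fold, where 9.90% of all genes were higher and 9.19% lower. IRF2, a repressor at the same promoter element, had an FPKM of 52.4 at PDL 15, 16.9 at PDL 55, 22.3 with control siRNA, 40.4 with AUF1 siRNA and 29.6 with HuR siRNA. SOCS1, the feedback inhibitor of JAK kinases, was the other and was chosen here after its values were seen: 4.75 at PDL 15, 0.0711 at PDL 55, 0.675 with control siRNA, 2.56 with AUF1 siRNA and 1.74 with HuR siRNA. PTPN11, a phosphatase, was 58.9 at PDL 15 and 14.1 with control siRNA.

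Sensors and adaptors were measured for 11 of 23 genes, none higher or lower at PDL 55. Against PDL 15, control siRNA gave 2 higher (14.0% of all genes) and 1 lower (11.7%) of 10. AUF1 siRNA gave 1 higher (9.90%) and 0 lower (9.19%) of 11, and HuR siRNA 0 higher (8.96%) and 4 lower (8.50%) of 11. MAVS, the mitochondrial adaptor of RIG-I, had an FPKM of 14.4 at PDL 15, 13.1 at PDL 55, 24.5 with control siRNA, 33.4 with AUF1 siRNA and 25.2 with HuR siRNA. The transfected libraries were the 3 highest, with ratios to PDL 15 of 1.14, 1.37 and 0.85. TBK1, the kinase downstream of MAVS, was at 5.91, 5.27, 6.97, 6.90 and 1.34 in that order, lowest with HuR siRNA. Its ratio there was -1.48 from annotated and -0.77 from all transcripts.

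Of 55 further interferon-induced genes 35 were measured. At PDL 55, 2 of 33 compared were higher and 8 lower, and with control siRNA 3 and 8 of 35, with AUF1 siRNA 3 and 5 of 34 and with HuR siRNA 0 and 7 of 35. The shares of all genes in each comparison are those given above. The list's medians against PDL 15 were -0.20, -0.20, 0.18 and -0.067. SLFN5, a Schlafen family protein, had an FPKM of 30.3 at PDL 15, 10.7 at PDL 55, 1.55 with control siRNA, 1.42 with AUF1 siRNA and 10.8 with HuR siRNA. Its ratios to PDL 15 were -1.11, -3.21, -3.49 and -1.33, and -0.30, -1.54, -1.64 and -1.01 with assembled transcripts. PLSCR1, a phospholipid scramblase named after its values were seen, had 28.7, 6.49, 5.32, 10.9 and 7.83, and was lower in all 4 comparisons with PDL 15. GBP1, a guanylate-binding protein, had 14.4, 5.50, 6.62 and 7.76, and was listed at 0 with HuR siRNA. At PDL 55 the 2 higher genes were IFI30 and ZNFX1. The higher ones were GBP4, APOL2 and SHISA5 with control siRNA, and SP140L, IFI30 and APOL2 with AUF1 siRNA. ZNFX1 had 26.7 at PDL 15 and 51.6 at PDL 55, a ratio of 1.24, and 1.36 with assembled transcripts. SP140L had 4.06 at PDL 15 and 17.95 with AUF1 siRNA, a ratio of 2.11, and 0.78 with assembled transcripts.

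Of 20 antigen presentation genes outside the members 16 were measured. At PDL 55, 1 was higher (TAP2; 9.40% of all genes) and 2 lower (HLA-B and TAPBPL; 10.2%) of 15 compared. Against PDL 15, control siRNA gave 3 higher (14.0% of all genes) and 4 lower (11.7%) of 15. AUF1 siRNA gave 3 higher (9.90%) and 1 lower (9.19%) of 15, and HuR siRNA 4 higher (8.96%) and 2 lower (8.50%) of 14. HLA-C and NLRC5 were among the higher in all 3. HLA-C was listed at 0 in both untreated libraries and at 17.0 to 35.2 in the transfected ones. HLA-B had 23.2 at PDL 15, 0 at PDL 55, 1.60 with control siRNA, 0 with AUF1 siRNA and 3.34 with HuR siRNA. It was thus lower than at PDL 15 in every other library. HLA-B and HLA-C are separate but related class I genes. With assembled transcripts HLA-C differed by less than 1 on the log2 scale in all 4 comparisons with PDL 15. HLA-B stayed lower at PDL 55 on that count, at -4.27, and NLRC5 stayed higher in the transfected libraries, at 1.48, 1.25 and 1.21. PSME1, a proteasome activator, was highest at PDL 15, at 41.4, and lowest with control siRNA, at 14.6.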

How the data were processed

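Total RNA of 5 WI-38 libraries was amplified as cDNA with NuGEN Ovation reagents, per the labels' protocols, and sequenced on an Illumina instrument. TopHat2 2.0.6, Cufflinks 2.0.2, Cuffdiff and the build hg19 are named in the submitters' processing notes. Which annotation release was used is not given in the sources used here. For each transcript the authors deposited an FPKM with 95% bounds, a status and a coverage signal, per the file headers.

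Annotated transcripts were assigned to genes by GENCODE 29 identifier (85.3% of 160485), gene or shared identifier in the tables (5.26% and 1.87%) or position (6.30%), and 1.30% had no gene. Of 271 member transcripts, 231 matched by GENCODE identifier. FPKM and bounds were summed per gene, and a gene with a FAIL transcript had no estimate in that library. Summed bounds describe the estimate within 1 library. Small RNA genes were left out, and the mean FPKM had to reach 1. Ratios used a pseudocount of 1. With 1 library per group no test was run. Python 3.11.15 with pandas 2.3.3 and NumPy 2.4.6 was used, and the scripts were tested on simulated data.

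The members and lists were chosen with earlier results of these data known. Values in all libraries are given for measured members at least 2-fold from PDL 15 or with a mean FPKM of at least 20. Of each further list, values are given for a few genes with large differences. Most have a mean of at least 5, and they are not in every case those with the largest differences. Alternatives were pseudocount, filter, scaling, status, transcript choice, assembled transcripts and fold.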

Additional observations from a re-analysis of the deposited data

Results flagged for a closer look

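Assembled transcripts, which the comparisons leave out, held signal for members whose annotated transcripts were listed at 0 in the same library. TRIM21 had an assembled FPKM of 6.48 at PDL 15, 4.89 at PDL 55, 2.72 with control siRNA and 6.21 with AUF1 siRNA. IFITM3 had 209.1 with HuR siRNA. EIF2AK2 had 7.21 with AUF1 siRNA. PARP9 had 4.06, SAMD9 1.60, DDX60 1.30 and IFIT3 1.16 with control siRNA. IFIT3 also had 1.66 with AUF1 siRNA, DDX60 1.36 at PDL 55 and USP18 2.19 at PDL 15.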

How the results depend on the processing

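No paired analysis was possible because each group has 1 library. Read numbers are unknown, and coverage was low in the control siRNA library. Members higher at PDL 55 numbered 2 with no filter, with a mean FPKM of at least 5 and with ratios as deposited, where the median member was -0.31. For control siRNA against PDL 15, 1 was higher with a mean of at least 5 and 0 as deposited, and the median member was -0.89 as deposited and -1.07 with FPKM rescaled to 1000000 per library. For AUF1 siRNA against PDL 15, 1 was higher with a pseudocount of 0.1, with no filter, after rescaling and with status OK transcripts alone, and 3 at 1.5-fold. For HuR siRNA against PDL 15, 0 were higher with a mean of at least 5 and 1 with assembled transcripts. For AUF1 against control siRNA, 2 were higher with a mean of at least 5, 7 after rescaling (median 0.58), 1 with assembled transcripts, 7 at 1.5-fold and 2 with neither library at 0. For HuR against control siRNA, 8 were higher with no filter and after rescaling (median 0.77), 1 with a mean of at least 5, and 2 with assembled transcripts, with status OK alone and with neither library at 0. The median there was 0.58 as deposited.

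With assembled transcripts the direction turned for EIF2AK2 with control siRNA against PDL 15 (-0.37), IFITM3 with HuR against control siRNA (1.48) and STAT2 with HuR siRNA against PDL 15 (0.38) and control siRNA (0.29). With 1 transcript a gene it turned for DDX58 with control siRNA against PDL 15 (0.19) and AUF1 against control siRNA (-0.076), EIF2AK2 with AUF1 siRNA against PDL 15 (0.19) and IFI6 with control siRNA against PDL 15 (-1.04). These are changes in which transcripts are counted. IFI6 and SAMD9L were above PDL 15 at PDL 55 in every alternative run, and ISG15 and TAP1 in every one but the mean FPKM of at least 5, which left them out. None of these runs counted assembled transcripts that were assigned to no gene. Over the alternatives, members lower than PDL 15 numbered 0 to 3 at PDL 55, 2 to 14 with control siRNA, 2 to 6 with AUF1 siRNA and 2 to 9 with HuR siRNA. Against control siRNA they numbered 0 to 6 with AUF1 and 1 to 7 with HuR siRNA. The alternative with genes at 0 left out was chosen after seeing the data, as was a mean filter over the 4 libraries other than control siRNA.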
